A study of Homo sapiens with 12 samples.

Results

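Transcript levels of actins and of proteins that make actin filaments contract were followed across 12 expression arrays of LNCaP cells in which the transcription factor SRF had been silenced or not. The genes were ACTA2, ACTG2, ACTB, ACTG1, MYLK, CALD1, CNN2, TAGLN, TPM1 and TPM2, which are 10 of the 21357 genes named on the array. Every probe set whose platform gene symbol was one of these 10 was taken, which gave 50 of the 54675 probe sets. Of the 50, 41 carried a single symbol and 9 carried both ACTG1 and ACTB. These 9 are annotated to both cytoplasmic actins, so their signal is credited to neither gene, and ACTG1 had no probe set of its own. How much of each transcript they read was not tested.

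LNCaP is a human prostate adenocarcinoma line that responds to androgen and has the character of luminal epithelium. The 4 groups of 3 arrays were SRF siRNA with R1881, SRF siRNA with ethanol vehicle, control siRNA with R1881, and control siRNA with ethanol vehicle, where R1881 is a synthetic androgen. In all 4 groups the cells first went without androgen for 48 h, then received siRNA, and 42 h after transfection were given 5 nM R1881 or vehicle for a further 48 h. The questions are how R1881 acts on these transcripts in silenced and in control cells, how silencing acts in each medium, and whether the androgen response depends on SRF. The model is a single tumour cell line with transient silencing, and the labels call the arrays biological replicates but do not say whether each was its own culture. The p-values therefore reflect only how much the deposited arrays varied within groups. The model fit pools that variation over all 4 groups.

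SRF (serum response factor) binds a short DNA element called the CArG box, and it is known for driving genes of the actin cytoskeleton and of muscle. One of its partners, the MRTF family, is held back by binding monomeric actin and freed when actin assembles into filaments, so that actin genes lie both upstream and downstream of the factor. ACTA2 and ACTG2 encode smooth muscle actins, and ACTB and ACTG1 encode the cytoplasmic actins found in all cells. Myosin light chain kinase (MYLK) switches on myosin, while caldesmon (CALD1), calponin (CNN2) and tropomyosin (TPM1, TPM2) sit along the filament and control its access to myosin. Transgelin (TAGLN) binds and crosslinks actin filaments.

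The promoters of several of these genes carry the element that SRF binds. RefSeq windows of 300 bases (250 before to 50 after each start, build GRCh38.p14) were searched for the CArG box, which is CC, then 6 bases that are each A or T, then GG, and reads as a CArG box on both strands. No other motif was searched. Of the 10 genes, 8 had a window (ACTB and TAGLN had none). A box lay in a window of 4 of them, ACTG2, ACTG1, MYLK and CNN2, against 1.60% of all 27305 genes with a window and 1.29% of all 35116 windows. When 1 base of the inner 6 was allowed to be G or C, ACTA2 and CALD1 joined them, giving 6 of 8 genes, against 9.88% of all genes and 8.13% of all windows. The 10 genes were chosen as actins and contractile targets of SRF. A higher share of boxes than over all genes is therefore no result about them. The search found neither form in the windows of TPM1 and TPM2, which says only that these letters were not in those windows. The TPM1 window belongs to a start 5742 bases inside the gene, so the 5-prime end of TPM1 was not searched. Stretches from 5 promoters are shown, those of the 4 genes with an intact box and that of ACTA2. ACTA2 was added because its R1881 response differed most between silenced and control cells. Capitals mark the box, and each ACTA2 box has 1 inner base that is G or C.
ACTA2, chr10:88952790-88952939, minus strand: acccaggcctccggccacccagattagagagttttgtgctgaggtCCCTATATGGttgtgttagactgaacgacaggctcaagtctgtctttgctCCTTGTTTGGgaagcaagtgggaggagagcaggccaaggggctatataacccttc
ACTG2, chr2:73892853-73892989, plus strand: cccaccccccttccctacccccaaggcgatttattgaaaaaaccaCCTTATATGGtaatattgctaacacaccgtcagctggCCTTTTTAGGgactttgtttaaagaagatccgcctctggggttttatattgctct
ACTG1, chr17:81512839-81512938, minus strand: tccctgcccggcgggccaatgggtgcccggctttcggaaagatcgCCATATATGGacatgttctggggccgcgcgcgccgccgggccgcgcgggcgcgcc
MYLK, chr3:123620588-123620687, minus strand: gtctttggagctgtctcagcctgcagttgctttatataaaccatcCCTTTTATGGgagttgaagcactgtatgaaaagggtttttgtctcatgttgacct
CNN2, chr19:1026474-1026573, plus strand: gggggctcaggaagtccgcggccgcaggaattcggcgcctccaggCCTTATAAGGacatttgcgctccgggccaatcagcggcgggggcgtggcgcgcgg
The ACTA2 window belongs to the inner of its 2 annotated starts, and the MYLK window belongs to the start of a short transcript near the 3-prime end of the gene. The boxes began 121 and 71 bases before the start in ACTA2, 110 and 73 before it in ACTG2, 94 before it in ACTG1 and in MYLK, and 89 before it in CNN2. A match is a description of the sequence and does not show that SRF was bound there in these cells.

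The arrays were alike in scale. Median log2 GCRMA signals, the unit of all levels below, ran from 2.97 to 3.06, and arrays of a group correlated at 0.996 to 0.998. SRF itself, on the probe set 202401_s_at, read 4.89, 4.98 and 4.73 with SRF siRNA and R1881, 4.56, 5.06 and 4.58 with SRF siRNA and vehicle, 6.50, 6.25 and 6.16 with control siRNA and R1881, and 5.91, 6.14 and 6.17 with control siRNA and vehicle. All 6 silenced arrays thus lay below all 6 control arrays, with 36.9% of the control signal left in R1881 and 39.5% in vehicle. The other SRF probe set, 202400_s_at, stayed between 2.56 and 2.87 on every array, so these shares rest on 1 probe set. The 6 luminal prostate markers with a probe set all passed the level filter, whereas 5 of the 8 smooth muscle markers, MYH11, DES, CNN1, MYOCD and LMOD1, did not. The 3 that passed were ACTA2 and TAGLN, described below, and SMTN, which read 6.07 to 7.49. None of the 4 leukocyte markers passed. The third array with SRF siRNA and R1881 stood apart in RNA quality, with a 3-prime minus 5-prime log2 difference of 2.21 on the ACTB control probe sets and 0.64 on those of GAPDH, against 1.26 to 1.84 and 0.07 to 0.49 on the other 11 arrays. Calls of these genes that were lost without it are given below.

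Of the 50 probe sets, 32 passed the filter (log2 signal above 4 on at least 3 arrays) and entered the test, and 31 of these were above 4 on all 12 arrays. They covered 7 genes with probe sets of their own, ACTA2, ACTB, MYLK, CALD1, CNN2, TAGLN and TPM1, together with the 9 shared ACTG1 and ACTB probe sets. The other 18 stayed between 1.82 and 3.67 on every array. Both ACTG2 probe sets and all 4 TPM2 probe sets were among them, as were 2 of 3 for ACTA2, 3 of 5 for MYLK, 4 of 11 for CALD1, 2 of 3 for TAGLN and 1 of 6 for TPM1. The member nearest below the filter was CALD1 235834_at, with a highest value of 3.67, and the nearest above it was TAGLN 205547_s_at, whose 3 highest values were all 4.82 or more. Which probe sets of a gene passed says nothing of the gene as a whole.

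A probe set was called when its adjusted p in the limma fit across all 21532 passing probe sets was under 0.05. With SRF siRNA against control siRNA in R1881, 21 of the 32 tested members were called, 4 higher and 17 lower, where 53.1% of all probe sets were called, 28.9% higher and 24.2% lower. In vehicle the same comparison called 26 of 32, 11 higher and 15 lower, against 49.1% of all probe sets, 26.4% higher and 22.7% lower. Refitted with 1 probe set per gene, the vehicle comparison called 3 of 7 of these genes, against 55.7% of all 10265. The 26 of 32 is therefore no result about these genes as a set. R1881 against vehicle called 13 of 32 in silenced cells, 4 higher and 9 lower, against 47.5% of all (20.8% higher and 26.7% lower). In control cells it called 17 of 32, 8 higher and 9 lower, against 55.8% of all (24% higher and 31.8% lower). Both R1881 shares were below or near the background and are no result about these genes as a set. The difference between the R1881 responses (silenced minus control) called 13 of 32, 5 higher and 8 lower, against 18.6% of all, 9.79% higher and 8.84% lower. The median log2 change of the 32 was −0.56 for SRF siRNA in R1881 (0.04 over all probe sets) and −0.05 in vehicle (0.03 over all). It was −0.19 for R1881 in silenced cells (−0.06 over all), −0.11 in control cells (−0.07 over all) and −0.13 for the difference (0.01 over all). Probe sets of one gene share a transcript, and CALD1, ACTB and the shared actins supply 22 of the 32, so the counts are not counts of independent genes. The comparisons also share arrays with one another. For each gene the probe set of highest mean is described first. By gene, ACTA2, CNN2 and TPM1 responded less to R1881 after silencing, CALD1 fell with either treatment, and MYLK rose with silencing in vehicle.

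**Figure D1:**
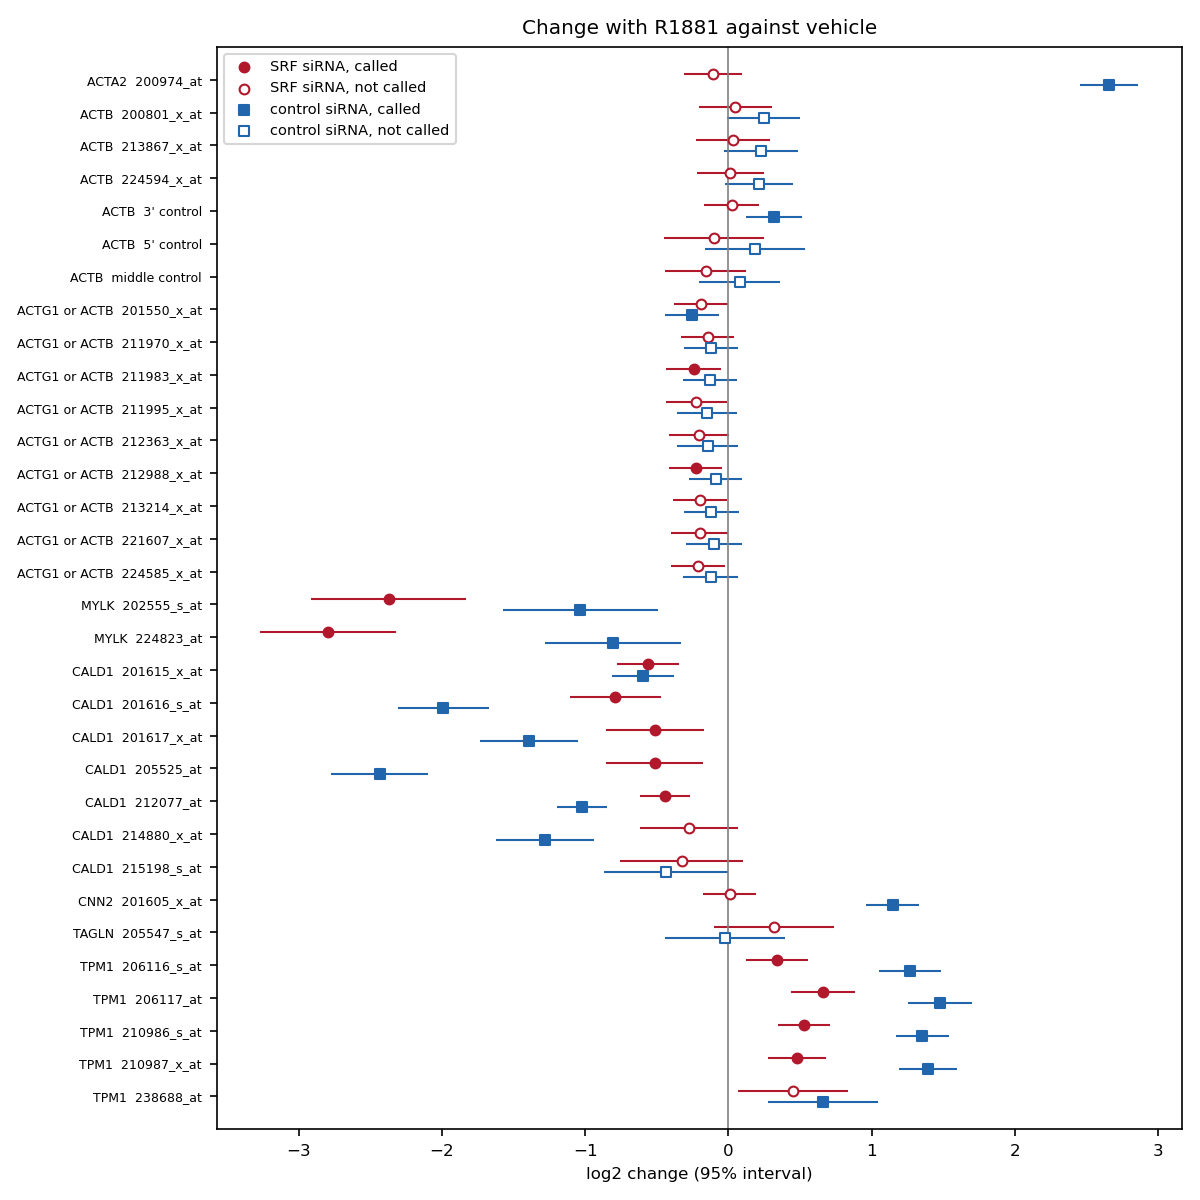
Change with R1881 against vehicle for the 32 tested probe sets, with SRF siRNA in red circles and control siRNA in blue squares. The x axis is the log2 change with its 95% interval, filled symbols passed an adjusted p of 0.05, and the ACTA2 point lies at −0.11 in silenced and 2.66 in control cells, while quantile normalization turns the sign of 7 of the 9 shared actin changes in silenced and 1 in control cells.

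ACTA2, the smooth muscle alpha-actin, was induced by R1881 only on the arrays with control siRNA. On 200974_at its log2 signal was 5.58, 5.34 and 5.37 with SRF siRNA and R1881, 5.44, 5.56 and 5.61 with SRF siRNA and vehicle, 8.20, 8.22 and 8.25 with control siRNA and R1881, and 5.57, 5.43 and 5.70 with control siRNA and vehicle. The 3 arrays with control siRNA and R1881 stood well above the other 9, and those 9 overlapped one another. R1881 changed it by −0.11 ± 0.09 (log2, SE, adjusted p = 0.364) in silenced cells and by 2.66 ± 0.09 (adjusted p = 7.76e-10), a 6.31-fold rise, in control cells. The 2 responses differed by −2.77 ± 0.13 (adjusted p = 2.3e-07). In R1881, SRF siRNA lowered ACTA2 by −2.79 ± 0.09 on the log2 scale (adjusted p = 2.12e-09), leaving 14.4% of the control signal. In vehicle the change with SRF siRNA was −0.03 ± 0.09 (adjusted p = 0.828). Ranked by signed change among the 21532 probe sets tested, ACTA2 was number 20 from the lowest for the difference of responses. The other 2 ACTA2 probe sets, 215787_at and 243140_at, never rose above 2.74, so the response rests on 1 probe set.

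ACTG2, the smooth muscle gamma-actin whose window holds 2 intact boxes, was close to background throughout. Its brighter probe set, 202274_at, had log2 signals of 2.90, 2.88 and 2.87 with SRF siRNA and R1881, 2.87, 2.87 and 2.85 with SRF siRNA and vehicle, 3.10, 3.02 and 3.22 with control siRNA and R1881, and 2.85, 2.87 and 2.90 with control siRNA and vehicle. The arrays with control siRNA and R1881 were again the 3 highest, by a small margin. In a fit without the level filter R1881 changed it by 0.02 ± 0.04 (log2, SE, adjusted p = 0.857) in silenced cells and 0.24 ± 0.04 (adjusted p = 0.00218) in control cells, and SRF siRNA changed it by −0.23 ± 0.04 in R1881 (adjusted p = 0.00314). The 2 R1881 responses differed by −0.22 ± 0.06, which did not pass (adjusted p = 0.0672). The other ACTG2 probe set, 241148_at, stayed between 2.31 and 2.56 and did not follow this order. In the same fit SRF siRNA changed it by 0.09 ± 0.05 in R1881 (adjusted p = 0.295). Its R1881 responses differed by 0.14 ± 0.07 (adjusted p = 0.436), opposite in sign to 202274_at. At this level a log2 change depends on the background estimate of GCRMA.

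**Figure D2:**
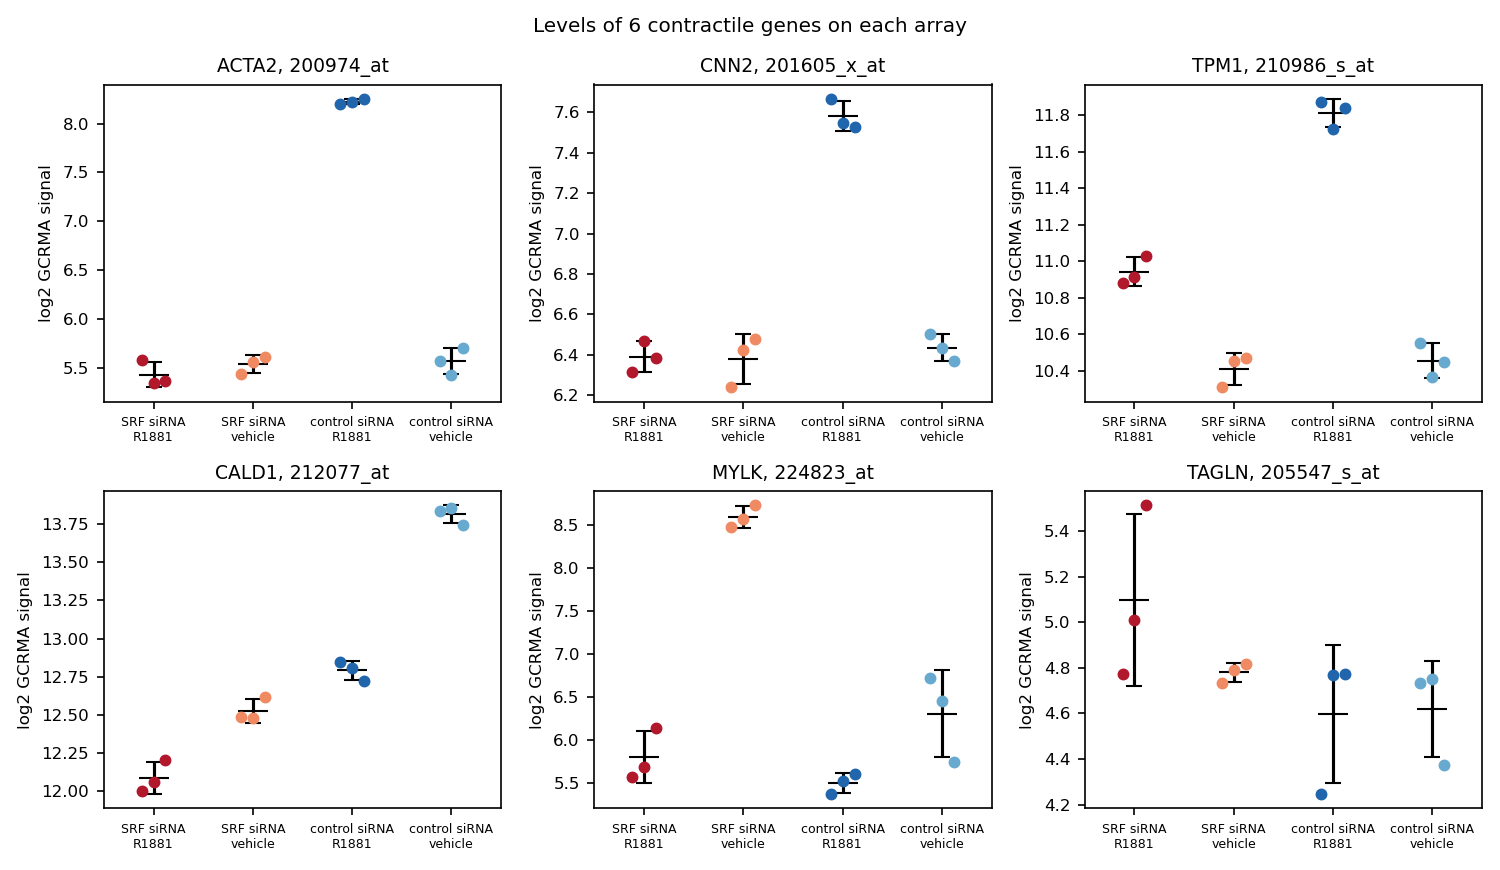
Log2 GCRMA signal of 6 genes on each of the 12 arrays, with points for arrays, bars for the mean and SD of 3, and a y axis of its own in each panel. ACTA2 and CNN2 are high only with control siRNA and R1881 (means 8.22 and 7.58), CALD1 is highest with control siRNA and vehicle (13.81), and MYLK is highest with SRF siRNA and vehicle (8.59).

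The cytoplasmic actin ACTB fell with SRF siRNA in both media. On 200801_x_at its log2 signal was 14.54, 14.51 and 14.41 with SRF siRNA and R1881, 14.64, 14.43 and 14.26 with SRF siRNA and vehicle, 15.06, 15.07 and 15.03 with control siRNA and R1881, and 14.57, 14.96 and 14.90 with control siRNA and vehicle. The silenced and control arrays were separate in R1881 and overlapped in vehicle. Over the 6 ACTB probe sets the change with SRF siRNA ran from −0.98 to −0.56 in R1881, and all 6 were called lower. In vehicle it ran from −0.69 to −0.36, again with 6 called lower, but the silenced and control arrays overlapped on the 3 probe sets that are not array controls. The vehicle call on 200801_x_at (−0.36 ± 0.12, adjusted p = 0.0215) was lost without any one of 4 arrays, replicates 2 and 3 of both vehicle groups, with adjusted p-values up to 0.0903. R1881 changed ACTB by −0.16 to 0.05 in silenced cells with none called, and by 0.08 to 0.32 in control cells with 1 called, the 3-prime control (adjusted p = 0.00906). After quantile normalization 4 of 6 were called higher in silenced cells, where the range became −0.14 to 0.38, and 4 of 6 in control cells (0.18 to 0.55), so the size and the calls of the R1881 change in ACTB depend on the scaling, while no ACTB probe set changed sign with it.

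The ACTB sign of RNA quality moved with SRF siRNA in both media, and the GAPDH sign only in vehicle. The array carries ACTB control probe sets at the 3-prime end, the middle and the 5-prime end of the transcript. SRF siRNA changed them by −0.67, −0.79 and −0.98 in R1881, and by −0.37, −0.55 and −0.69 in vehicle, so the measured fall grew toward the 5-prime end. The 3-prime minus 5-prime difference of ACTB averaged 1.81 ± 0.35 with SRF siRNA and R1881, 1.69 ± 0.14 with SRF siRNA and vehicle, 1.50 ± 0.02 with control siRNA and R1881, and 1.37 ± 0.12 with control siRNA and vehicle (log2, SD, n = 3 each). It did not overlap between silenced and control arrays in either medium, with an exact two-sided permutation p of 0.1, the smallest that 3 against 3 arrays can give. For GAPDH the same difference averaged 0.49 ± 0.14, 0.36 ± 0.04, 0.46 ± 0.02 and 0.14 ± 0.09 in these 4 groups. With the GAPDH difference as a covariate all 6 ACTB probe sets were called lower in R1881, and 1 of 6 in vehicle. In R1881 the GAPDH difference was nearly the same with SRF siRNA and control siRNA (0.49 and 0.46). The covariate could therefore adjust little there, and the calls kept in R1881 do not settle the part of RNA quality. Without the third array with SRF siRNA and R1881 the 5-prime probe set fell by 0.77 in R1881 and remained called. The part of RNA quality in the ACTB change was not tested further in either medium.

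The 9 probe sets shared by ACTG1 and ACTB had changes opposite in sign to ACTB's own under SRF siRNA. On 211995_x_at the log2 signal was 14.18, 13.99 and 13.96 with SRF siRNA and R1881, 14.34, 14.22 and 14.24 with SRF siRNA and vehicle, 13.79, 13.79 and 13.82 with control siRNA and R1881, and 13.77, 14.13 and 13.95 with control siRNA and vehicle. Silenced arrays were higher than control arrays in both media without overlap, by 0.24 ± 0.10 (log2, SE, adjusted p = 0.0511) in R1881 and 0.32 ± 0.10 (adjusted p = 0.0168) in vehicle. In R1881 the 9 changes with SRF siRNA ran from 0.17 to 0.36 and 3 were called higher, or all 9 after quantile normalization. Of the 3 calls, that on 211970_x_at was lost in 5 of 12 fits that left out 1 array and that on 213214_x_at in 6 of 12 (adjusted p up to 0.129 and 0.120). In vehicle they ran from 0.26 to 0.32, and all 9 were called higher, though none with the GAPDH covariate. On 6 of the 9 the vehicle call was lost without any one of 2 to 5 vehicle arrays, and on 211995_x_at these were the first array of either vehicle group (adjusted p up to 0.0685). Between them the 6 lost it without each of the 3 arrays with SRF siRNA and vehicle and without the first or replicate 3 with control siRNA and vehicle. R1881 changed them by −0.24 to −0.15 in silenced cells, with 2 called lower, and by −0.26 to −0.09 in control cells, with 1 called. The 2 calls, on 211983_x_at and 212988_x_at, were each lost in 8 of 12 fits that left out 1 array, among them the fit without the third array with SRF siRNA and R1881 (adjusted p = 0.0955 and 0.105). The call in control cells, on 201550_x_at, was lost in 3 of 12 such fits. After quantile normalization 7 of the 9 turned positive in silenced cells and 1 did in control cells, so these small R1881 changes have no settled direction.

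The gap between the 2 kinds of actin probe set was compared on each array, a comparison chosen after the values were seen. The mean of the 6 ACTB probe sets minus the mean of the 9 shared ones was 0.32, 0.40 and 0.23 with SRF siRNA and R1881, 0.22, 0.18 and 0.01 with SRF siRNA and vehicle, 1.26, 1.23 and 1.21 with control siRNA and R1881, and 0.80, 0.87 and 0.98 with control siRNA and vehicle (log2). All 6 silenced arrays lay below all 6 control arrays. The difference with SRF siRNA was −0.92 in R1881 and −0.75 in vehicle, and with R1881 it was 0.18 in silenced and 0.35 in control cells. Each of these 4 comparisons had an exact two-sided permutation p of 0.1 (0.1 after adjustment over the 4), the smallest that 3 against 3 arrays allow. Unequal change within an array does not show which of the 2 transcripts changed.

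**Figure D3:**
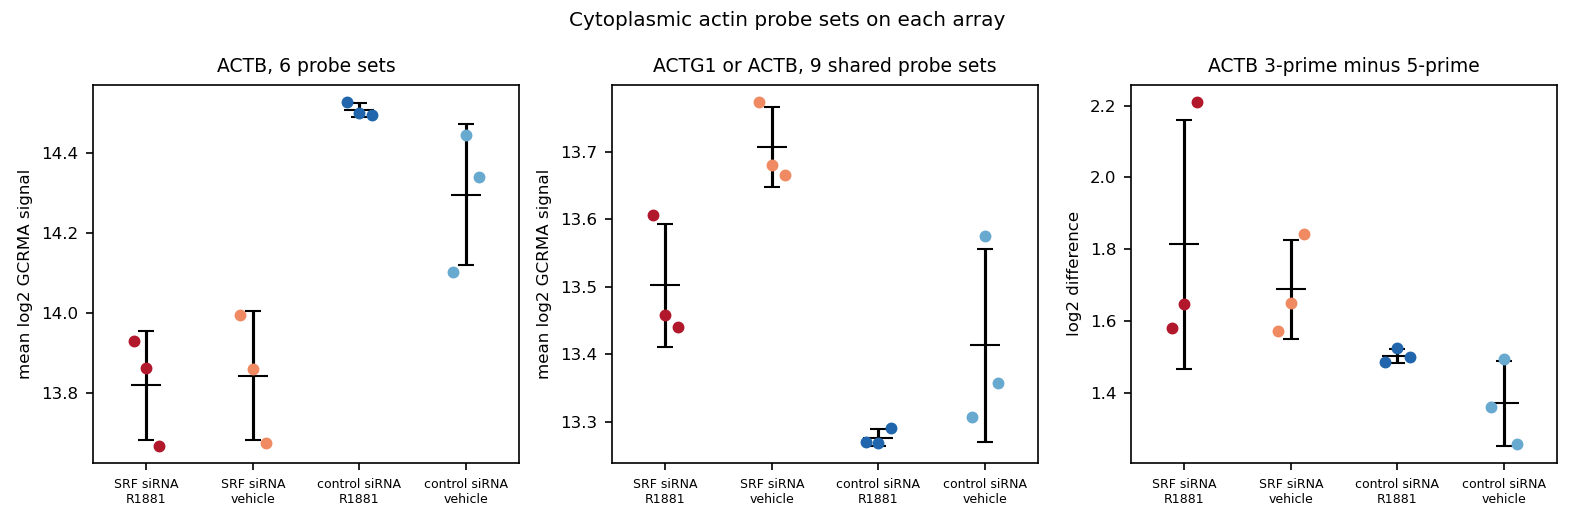
Mean log2 GCRMA signal of the 6 ACTB and the 9 shared ACTG1 and ACTB probe sets, and the ACTB 3-prime minus 5-prime difference, on each array, with the mean and SD of 3. The ACTB mean is lower and the shared mean higher with SRF siRNA than with control siRNA in each medium, while quantile normalization turns the sign of the R1881 change on 7 of the 9 shared probe sets in silenced and 1 in control cells.

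CNN2, calponin 2, a filament-binding protein of many cell types, followed ACTA2. On 201605_x_at its log2 signal was 6.31, 6.47 and 6.39 with SRF siRNA and R1881, 6.24, 6.42 and 6.48 with SRF siRNA and vehicle, 7.67, 7.55 and 7.53 with control siRNA and R1881, and 6.50, 6.43 and 6.37 with control siRNA and vehicle. The 3 arrays with control siRNA and R1881 were the highest and the other 9 overlapped. R1881 changed it by 0.01 ± 0.08 (log2, SE, adjusted p = 0.927) in silenced cells and raised it by 1.15 ± 0.08 (adjusted p = 3.69e-07), or 2.21-fold, in control cells. The responses differed by −1.14 ± 0.12 (adjusted p = 7.57e-05). SRF siRNA left 43.8% of the control signal in R1881 (−1.19 ± 0.08, adjusted p = 4.83e-07), and in vehicle the change was −0.06 ± 0.08 (adjusted p = 0.607). Both calls held in each fit that left out 1 array.

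TPM1, the tropomyosin that winds along actin filaments, was induced by R1881 with either siRNA, and less so after silencing. On 210986_s_at its log2 signal was 10.88, 10.92 and 11.03 with SRF siRNA and R1881, 10.31, 10.45 and 10.47 with SRF siRNA and vehicle, 11.87, 11.72 and 11.84 with control siRNA and R1881, and 10.55, 10.36 and 10.45 with control siRNA and vehicle. The R1881 arrays were above the vehicle arrays with both siRNAs, and those with control siRNA and R1881 were highest. R1881 raised it by 0.53 ± 0.08 (log2, SE, adjusted p = 0.000268), or 1.44-fold, in silenced cells and by 1.36 ± 0.08 (adjusted p = 7.82e-08), or 2.56-fold, in control cells. The responses differed by −0.82 ± 0.12 (adjusted p = 0.000604).

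The other TPM1 probe sets mostly followed this one. On 206117_at, the log2 signal was 5.11, 5.23 and 5.16 with SRF siRNA and R1881, 4.67, 4.58 and 4.26 with SRF siRNA and vehicle, 6.37, 6.54 and 6.46 with control siRNA and R1881, and 4.99, 5.01 and 4.94 with control siRNA and vehicle. Here the silenced vehicle arrays were also below the control vehicle arrays, by −0.47 ± 0.10 (adjusted p = 0.00239). Over the 5 tested probe sets R1881 changed TPM1 by 0.34 to 0.66 in silenced cells, with 4 called higher, and by 0.66 to 1.48 in control cells, with 5 called higher. The difference between the responses ran from −0.93 to −0.21, and 4 were called. The exception was 238688_at, with a difference of −0.21 ± 0.25 (adjusted p = 0.613). SRF siRNA changed the 5 by −1.29 to −0.07 in R1881, with 4 called lower. In vehicle the 5 ranged from −0.47 to 0.14 with 2 called lower, and the second of these, 206116_s_at (−0.27 ± 0.10, adjusted p = 0.0417), lost its call in 9 of 12 fits that left out 1 array, with adjusted p-values up to 0.129. TPM1 probe sets thus disagreed on whether silencing lowered the transcript in vehicle.

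CALD1, caldesmon, the filament protein that blocks myosin, was highest without R1881 and with SRF intact, and either treatment lowered it. On 212077_at its log2 signal was 12.00, 12.06 and 12.20 with SRF siRNA and R1881, 12.48, 12.48 and 12.62 with SRF siRNA and vehicle, 12.85, 12.80 and 12.72 with control siRNA and R1881, and 13.84, 13.86 and 13.75 with control siRNA and vehicle. The 3 arrays with control siRNA and vehicle were the highest, the 3 with both treatments the lowest, and no 2 groups overlapped. R1881 lowered it by −0.44 ± 0.08 on the log2 scale (adjusted p = 0.000769) in silenced cells and by −1.02 ± 0.08 (adjusted p = 6.05e-07) in control cells, leaving 73.7% and 49.2% of the vehicle signal. The responses differed by 0.58 ± 0.11 (adjusted p = 0.00429), a positive value because the fall was smaller after silencing. SRF siRNA lowered it by −0.71 ± 0.08 (adjusted p = 1.76e-05) in R1881 and by −1.29 ± 0.08 (adjusted p = 2.3e-07) in vehicle, where 40.9% of the control signal was left.

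Other CALD1 probe sets gave wider changes. On 201616_s_at the log2 signal was 10.73, 10.73 and 10.11 with SRF siRNA and R1881, 11.43, 11.36 and 11.15 with SRF siRNA and vehicle, 11.38, 11.43 and 11.40 with control siRNA and R1881, and 13.33, 13.43 and 13.43 with control siRNA and vehicle. Its means were 10.52 ± 0.35 with both treatments, 11.31 ± 0.15 with silencing alone, 11.41 ± 0.03 with R1881 alone and 13.40 ± 0.06 with neither (SD, n = 3 each), and SRF siRNA changed it by −0.88 ± 0.15 (log2, SE, adjusted p = 0.000315) in R1881 and −2.09 ± 0.15 (adjusted p = 5.46e-07) in vehicle. On 205525_at the log2 signal was 4.90, 4.93 and 4.91 with SRF siRNA and R1881, 5.64, 5.39 and 5.26 with SRF siRNA and vehicle, 4.72, 4.82 and 5.34 with control siRNA and R1881, and 7.60, 7.31 and 7.28 with control siRNA and vehicle. The arrays with control siRNA and vehicle stood alone, and the silenced and control arrays overlapped in R1881, where the change with SRF siRNA was −0.04 ± 0.16 (adjusted p = 0.838). In vehicle it was −1.96 ± 0.16 (adjusted p = 1.46e-06). The difference between the R1881 responses of this probe set, 1.92 ± 0.22 (adjusted p = 0.000139), was the widest of the 7 tested for CALD1.

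Across the 7 CALD1 probe sets SRF siRNA changed the signal by −1.14 to −0.04 in R1881, with 5 called lower, and by −2.09 to −0.71 in vehicle, with 7 called lower. R1881 changed it by −0.79 to −0.27 in silenced cells, with 5 called lower, and by −2.44 to −0.44 in control cells, with 6 called lower. The difference between the responses ran from 0.03 to 1.92, and 5 were called higher. The 2 that were not were 201615_x_at (0.03 ± 0.14, adjusted p = 0.903) and 215198_s_at (0.11 ± 0.28, adjusted p = 0.831). On 201615_x_at R1881 lowered CALD1 by −0.56 ± 0.10 in silenced and −0.60 ± 0.10 in control cells, nearly the same amount. The probe sets of this gene therefore disagreed on whether its response to R1881 differed between silenced and control cells. The call on 215198_s_at for SRF siRNA in R1881 (−0.60, adjusted p = 0.0223) was lost without the third array with SRF siRNA and R1881 (−0.36, adjusted p = 0.0979) and without the first with control siRNA and R1881.

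MYLK, the kinase that activates myosin by phosphorylating its light chain, rose with SRF siRNA in vehicle and fell with R1881. On 224823_at its log2 signal was 5.57, 5.68 and 6.14 with SRF siRNA and R1881, 8.48, 8.56 and 8.72 with SRF siRNA and vehicle, 5.37, 5.52 and 5.60 with control siRNA and R1881, and 6.71, 6.45 and 5.74 with control siRNA and vehicle. The 3 arrays with SRF siRNA and vehicle stood above all others. SRF siRNA changed it by 0.30 ± 0.22 (log2, SE, adjusted p = 0.273) in R1881 and raised it by 2.29 ± 0.22 (adjusted p = 5.78e-06), or 4.88-fold, in vehicle. R1881 lowered it by −2.79 ± 0.22 (adjusted p = 8.79e-07) in silenced cells, to 14.4% of the vehicle signal, and by −0.80 ± 0.22 (adjusted p = 0.00765) in control cells, to 57.3%. The responses differed by −1.99 ± 0.31 (adjusted p = 0.00101).

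The second MYLK probe set, 202555_s_at, gave the same order at a lower signal. It averaged 4.38 ± 0.40 with SRF siRNA and R1881, 6.75 ± 0.37 with SRF siRNA and vehicle, 3.93 ± 0.36 with control siRNA and R1881, and 4.96 ± 0.26 with control siRNA and vehicle (log2, SD, n = 3 each). The arrays with SRF siRNA and vehicle were again highest without overlap. SRF siRNA raised it by 1.79 ± 0.25 (adjusted p = 0.000101) in vehicle, and the R1881 responses differed by −1.34 ± 0.35 (adjusted p = 0.0208). This difference was not called without the first array with control siRNA and R1881 (adjusted p = 0.0511) or with the GAPDH covariate (adjusted p = 0.0899). The summed linear signal of the fibroblast markers, of which only COL1A1 and COL3A1 passed the filter, was also highest with SRF siRNA and vehicle. It ran from 111 to 122 with SRF siRNA and R1881, 297 to 356 with SRF siRNA and vehicle, 110 to 132 with control siRNA and R1881, and 169 to 202 with control siRNA and vehicle, and its part in the MYLK result was not tested. The silenced and control arrays overlapped in R1881. COL3A1 averaged 4.07, 7.91, 2.97 and 6.45 in these groups (log2), whereas COL1A1 averaged 5.69, 5.56, 6.02 and 5.70 and was lowest where MYLK was highest. Of the basal or mesenchymal markers only VIM passed, and that list summed to 314 to 388, 246 to 266, 121 to 127 and 148 to 157 in the same groups.

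TAGLN, transgelin, which is often used as a readout of SRF in muscle, was dim and changed little. On 205547_s_at its log2 signal was 4.77, 5.01 and 5.51 with SRF siRNA and R1881, 4.73, 4.79 and 4.82 with SRF siRNA and vehicle, 4.25, 4.77 and 4.77 with control siRNA and R1881, and 4.73, 4.75 and 4.37 with control siRNA and vehicle. SRF siRNA raised it by 0.50 ± 0.19 (log2, SE, adjusted p = 0.0427) in R1881, against the direction of ACTA2, but the call was lost in 8 of 12 fits that left out 1 array. Without the third array with SRF siRNA and R1881 the change was 0.30 (adjusted p = 0.174). In vehicle it was 0.16 ± 0.19 (adjusted p = 0.516), and R1881 changed it by 0.32 ± 0.19 (adjusted p = 0.191) in silenced and −0.02 ± 0.19 (adjusted p = 0.928) in control cells. The last value turned to 0.07 after quantile normalization and was not called there.

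**Figure D4:**
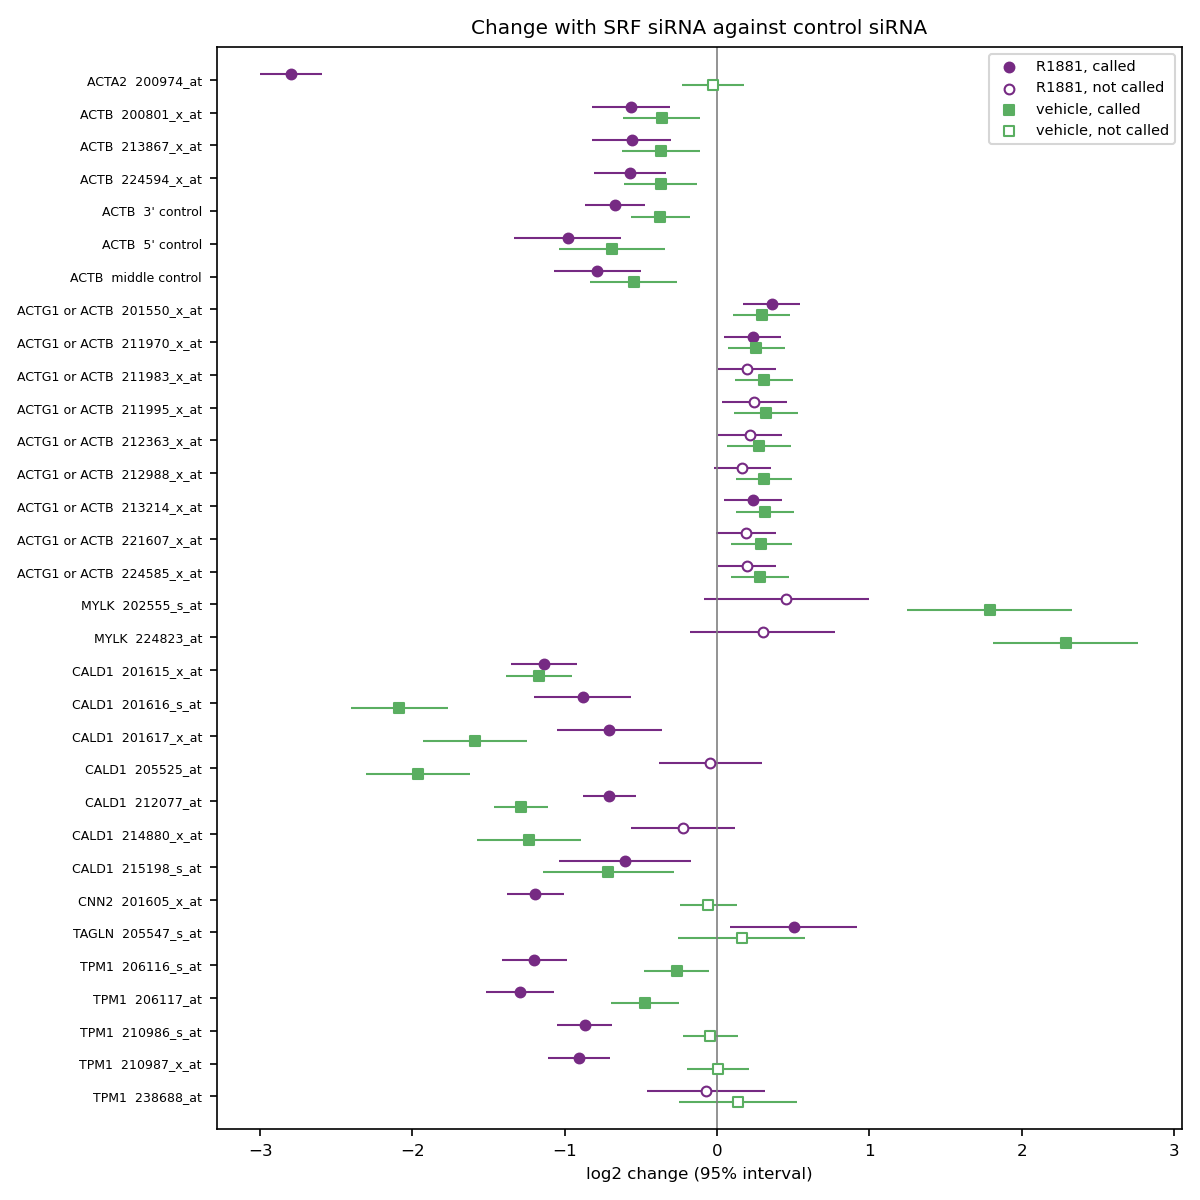
Change with SRF siRNA against control siRNA for the 32 tested probe sets, in R1881 as purple circles and in vehicle as green squares. The x axis is the log2 change with its 95% interval, filled symbols passed an adjusted p of 0.05, and ACTA2, CNN2 and TPM1 210986_s_at fall in R1881 (−2.79, −1.19 and −0.87) and lie near 0 in vehicle, MYLK rises in vehicle, and the shared actin probe sets lie above 0 where ACTB lies below it.

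Among genes outside the set, 5 had 4 group means most like those of ACTA2, by the root mean square difference of the centred means. They were CRIM1 (0.06), FMO5 (0.07), SDK1 (0.11), LAMA1 (0.12) and CCL8 (0.15), against a median of 1.23 over 10258 genes. Their mean log2 signals were 4.65 to 6.05 with control siRNA and R1881 and 2.11 to 3.44 in the other 3 groups, below the level filter of 4. They passed the filter only through that group, so their likeness to ACTA2 rests on it, and no fold is given over signals at background.

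Other genes of the same machinery, taken 1 probe set per gene, were counted for comparison. With p still adjusted over the 21532 probe sets, over all 10265 genes SRF siRNA called 56.9% in R1881 and 53.1% in vehicle, R1881 called 50.8% in silenced and 59.1% in control cells, and the difference of responses called 20.7%. Of 25 other cytoskeletal targets of SRF and MRTF, 17 were tested. SRF siRNA in R1881 called 1 higher and 13 lower, against 32.4% higher and 24.5% lower over all 10265 genes, with a median of −0.40 (0.06 over all). The largest falls were in CCN1, a secreted matrix protein (−1.25 ± 0.11), LIMA1, a filament stabiliser (−1.10 ± 0.07), and ZYX, a focal adhesion protein (−0.85 ± 0.10). In vehicle SRF siRNA called 3 higher and 8 lower, against 29.3% and 23.8%. R1881 called 6 higher and 4 lower in silenced cells, against 24.4% and 26.4%, and 12 higher and 2 lower in control cells, against 26.1% and 32.9%. The difference between the responses called 1 higher and 7 lower, against 11.4% and 9.28% over all genes. The members with the widest differences were CCN1 (−1.44 ± 0.16), SVIL, a membrane-linked filament protein (−1.37 ± 0.36), and ZYX (−1.18 ± 0.14). SVIL averaged only 3.80 with control siRNA and vehicle, below the filter level of 4. In vehicle SRF siRNA raised SVIL by 1.77 ± 0.25, so its difference rests in part on a signal near background.

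The other smooth muscle contractile genes numbered 20, and 6 were tested. SRF siRNA called 1 higher and 3 lower in R1881, against 32.4% and 24.5% of all 10265 genes, and SMTN, smoothelin, was the riser (0.52 ± 0.15). In vehicle SRF siRNA called 3 higher and 2 lower, against 29.3% and 23.8%, again with SMTN first (0.79 ± 0.15). With 6 genes tested, these counts are no result about the list as a set. The R1881 responses differed in 2 of the 6, against 20.7% of all genes. These were CSRP1, a filament-associated LIM protein (−0.99 ± 0.10), and TPM4, another tropomyosin (−0.98 ± 0.15). Of 23 genes of actin monomer and filament turnover, 21 were tested. The responses differed in 5 toward higher and 1 toward lower values in silenced cells, against 11.4% and 9.28% of all genes. The widest were in DIAPH2, a formin (1.24 ± 0.25), GSN, gelsolin, which severs filaments (0.74 ± 0.16), and ARPC1B, a subunit of the Arp2/3 complex (0.64 ± 0.13). Of 12 genes that control myosin light chain, 10 were tested and 1 differed, against 20.7% of all genes. It was MYL12A, a light chain itself (−0.54 ± 0.10). R1881 raised MYL12A by 0.79 ± 0.07 in silenced and 1.33 ± 0.07 in control cells.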

How the data were processed

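Total RNA (3.5 µg a sample) was read on 12 one-colour Affymetrix arrays, 3 in each of 4 groups taken from the labels. The deposited values are log2 signals per probe set, made by the authors with GCRMA per the submitters' processing notes; its version is not given in the sources used here. They were used as deposited, with array medians of 2.97 to 3.06. Gene symbols came from the platform annotation, of which 41043 single-symbol probe sets were matched by gene number and none changed. The 56 spike-in controls without a symbol were left out. Probe sets above 4 (log2) on at least 3 arrays were kept (21532 of 54675). Each probe set was fitted with 1 mean per group in limma 3.58.1 in R 4.3.3 (moderated variances, Benjamini-Hochberg adjustment over the 21532), and the R1881 responses were compared by the interaction, silenced minus control. SE is the moderated standard error, and SD is over 3 arrays. For gene lists the probe set of highest mean stood for a gene (10265 genes).

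The genes and lists were chosen with earlier results of these data known. All 10 genes are named, with SRF, from each list up to 3 called genes of largest change for the contrasts described, and the 5 genes most like ACTA2. The 12 arrays limit the precision. On simulated data of 21532 probe sets, 50 were given each size of change. For R1881 in control cells the fit called 0% of changes of 0.25, 46% of 0.5, 88% of 1 and 96% of 2 (log2), with 8 false calls. For the difference of responses it called 0%, 14%, 58% and 98%, with 6 false calls. The real data had far more calls, 55.8% of all probe sets for R1881 in control cells and 18.6% for the difference. The adjusted threshold is less strict there, so the simulated shares do not carry over. The alternatives were no filter, values under 4 set to 4, 1 probe set per gene, equal array medians, quantile normalization, trended and robust variances, a fit of the compared groups alone, a replicate block, a GAPDH 3-prime to 5-prime covariate, a threshold of 0.01, and leaving out each array in turn. Promoter windows are from RefSeq (GRCh38.p14). Figures were drawn with matplotlib 3.10.9.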

Additional observations from a re-analysis of the deposited data

Results flagged for a closer look

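The response to R1881 differed between SRF siRNA and control siRNA, by the test of the difference itself in the limma fit, on 13 of the 32 tested probe sets. Each value is the log2 response in silenced cells minus that in control cells. ACTA2 200974_at had the most negative value, −2.77. MYLK differed by −1.34 on 202555_s_at and −1.99 on 224823_at, where the fall with R1881 was larger in silenced cells. CNN2 201605_x_at differed by −1.14. TPM1 differed by −0.93 on 206116_s_at, −0.82 on 206117_at, −0.82 on 210986_s_at and −0.92 on 210987_x_at, where the rise with R1881 was smaller in silenced cells. CALD1 differed by 1.20 on 201616_s_at, 0.88 on 201617_x_at, 1.92 on 205525_at, 0.58 on 212077_at and 1.01 on 214880_x_at, where the fall with R1881 was smaller in silenced cells. A difference on the log2 scale compares ratios, not amounts of RNA.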

How the results depend on the processing

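Over all alternatives 3188 values for single probe sets kept their direction and side of the threshold, 62 changed sign without a call under either setting, 166 lost a call, 54 gained one and 2 reversed. The 2 reversed were the falls of the shared actin probe sets 211983_x_at and 212988_x_at with R1881 in silenced cells, which became 0.0276 and 0.0167 after quantile normalization; the cause was not tested. Refitted with 1 probe set per gene and p adjusted over those 10265, which leaves 7 of these genes, the calls among members were 3 for R1881 in silenced and 5 in control cells, 6 for SRF siRNA in R1881 and 3 in vehicle, and 5 for the difference. The counts over all 10265 genes were 5453, 6225, 6058, 5717 and 2441 in the same order, or 53.1%, 60.6%, 59.0%, 55.7% and 23.8%. At an adjusted p under 0.01 the members called were 8 of 32 for R1881 in silenced cells (34.5% of all probe sets) and 12 of 32 for SRF siRNA in vehicle (36.1% of all), and 2016 probe sets in all were called for the difference. With the GAPDH 3-prime to 5-prime covariate 10 of 32 members were called for SRF siRNA in vehicle, against 26 without it, where 33.9% of all probe sets were called, against 49.1% without it. For R1881 in control cells it called 7367 probe sets in all, against 12025. The GAPDH difference averaged 0.36 with SRF siRNA and 0.14 with control siRNA in vehicle, and 0.46 with R1881 and 0.14 with vehicle in control cells, so RNA quality and treatment cannot be told apart in either comparison.

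Leaving out each array in turn gave 9 to 16 members for R1881 in silenced cells (8865 to 10230 probe sets in all), 16 to 18 in control cells (10852 to 12307), 17 to 24 for SRF siRNA in R1881 (10163 to 11488), 19 to 26 in vehicle (9384 to 10918) and 12 to 14 for the difference (3180 to 3756). Same-numbered arrays of different groups did not deviate together, since 2 of 12 correlations of their deviations were over 0.1 (range −0.18 to 0.19), so the numbers do not pair the arrays. With a replicate block the member counts were 12 for R1881 in silenced and 17 in control cells, 19 for SRF siRNA in R1881 and 25 in vehicle, and 13 for the difference, where 46.3%, 54.8%, 52.1%, 47.9% and 16.7% of all probe sets were called. A fit of the compared groups alone called 9 members for R1881 in silenced and 17 in control cells. For SRF siRNA it called 22 in R1881 and 20 in vehicle. The shares of all probe sets were 42.4%, 56.0%, 51.6% and 46.0% in that order. Signal over background limits ACTG2, TPM2 and TAGLN, and the arrays are few.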
